A study of Mus musculus with 9 samples.

Results

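The mitochondrial ribosome translates the few messages that mitochondrial DNA encodes, all of them subunits of the respiratory chain and ATP synthase. Its proteins, the mitochondrial ribosomal proteins, are all encoded in the nucleus, translated in the cytosol and imported, and they assemble with mitochondrial rRNA into a large subunit (gene symbols Mrpl), which holds the peptidyl transferase centre, and a small subunit (Mrps), which decodes the message. Many of these proteins descend from bacterial ribosomal proteins, and others are found only in mitochondria. The hepatocyte is rich in mitochondria, and oxidation of fatty acids in it feeds the respiratory chain that these ribosomes help to build.

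Members were the genes whose name in the array files begins with Mrpl or Mrps followed by a digit, each represented by the brightest of its probes over 9 arrays. There were 77 such genes among 37060 gene names with a probe, measured by 119 probes. Subunits were assigned by name alone, 48 large (Mrpl) and 29 small (Mrps). Mrps18a, Mrps30 and Mrps36, described below, therefore count as small subunit genes. A gene entered the test if its probe was marked as well above background throughout 1 group or more (3 of 3 arrays). That left 53 members, 33 of the large and 20 of the small subunit, among 5759 genes tested, and 24 members without a test.

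Livers of male C57BL/6N mice were measured on 9 one-colour arrays, 3 per group, at a labelled age of 12 months; the study's text counts such times from the injection of adult mice, and which one holds is not settled here. AAV-V mice received a hepatocyte-specific adeno-associated virus with an empty vector and a normal diet. AAV-GP73 mice received the virus encoding mouse GP73, a Golgi protein that the study describes as a Rab GTPase-activating protein, with the same diet, and AAV-V HFD mice received the empty vector and a high fat diet, whose length differs between the parts of the study that give it. All mice therefore carried a virus, which per the methods was given into the vein repeatedly, and whether an array holds the RNA of 1 mouse or of a pool is not stated, so the p-values measure the spread between these samples. Golm1, which encodes GP73, had 1 probe (mm9, chromosome 13, 59736466 to 59736525), which was well above background on 0 of the 9 arrays, so the labels could not be checked with it. The hepatocyte markers fixed for this purpose were present, and all 10 were well above background on every AAV-V and AAV-GP73 array.

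The AAV-V arrays stood apart in brightness. Between 10.2% and 10.7% of their spots were well above background, against 16.0% to 18.4% on the AAV-GP73 arrays and 13.8% to 16.7% on the AAV-V HFD arrays, while the mean log2 signal of the spike-in spots was 10.38 to 10.92, 10.42 to 10.49 and 10.49 to 10.87. The 75th percentile of the processed signal, over the 2666 probes well above background on all 9 arrays, was 89.3 to 105 on the AAV-V arrays and 195 to 326 on the other 6. Values below are log2 processed signals after each array was shifted to the same such percentile, here called scaled log2 signals. Both normal diet groups shared slide 1 while all high fat diet arrays were on slide 2, and effects of slide and diet cannot be told apart. What the dimmer AAV-V arrays contribute to the differences of the members was not tested.

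Fewer members were detected in AAV-V than in either other group. On the AAV-V arrays 17, 13 and 9 of the 77 members were well above background, on the AAV-GP73 arrays 59, 58 and 66, and on the AAV-V HFD arrays 57, 57 and 47. No AAV-V array reached the count of any other array. Over all gene names the share well above background was 9.18% to 9.85% on the AAV-V arrays, 16.5% to 19.4% on the AAV-GP73 arrays and 13.7% to 17.7% on the AAV-V HFD arrays, so the same order of groups was found for genes at large. Both subunits followed it: of the 48 large subunit genes 6 to 12 were detected on an AAV-V array and 37 to 42 on an AAV-GP73 array, and of the 29 small subunit genes 3 to 6 and 21 to 24.

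**Figure D1:**
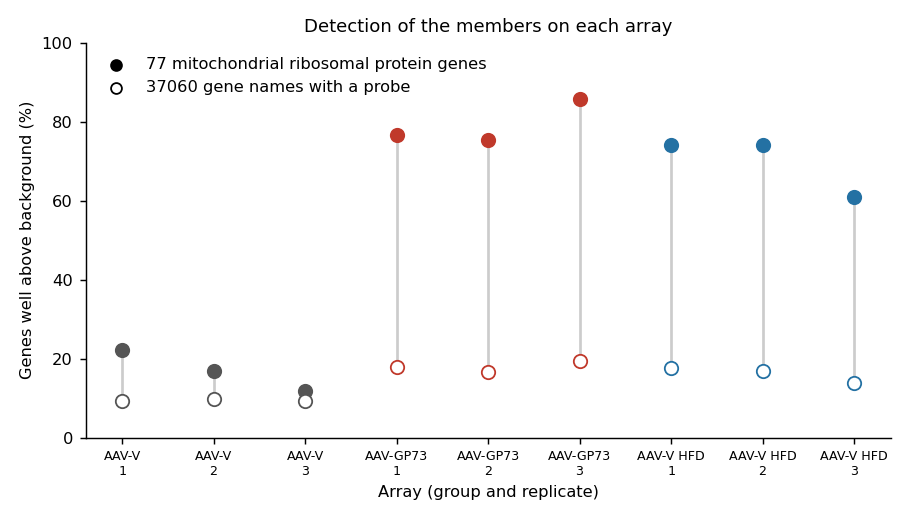
Share of genes well above background (vertical axis, %) on each of the 9 arrays (horizontal axis), for the 77 mitochondrial ribosomal protein genes (filled) and for all 37060 gene names (open). The members lie at 11.7% to 22.1% on the AAV-V arrays and at 61.0% to 85.7% on the other 6.

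Seen by gene, 7 members (9.09%) were well above background on all 9 arrays, and 28 (36.4%) were so on all arrays of both other groups but on 0 AAV-V arrays. A further 7 members were detected on all AAV-GP73 arrays, on 2 AAV-V HFD arrays and on 0 AAV-V arrays, and 11 on 1 or 2 AAV-V arrays and all the others. The remaining 24 were never detected on all 3 arrays of a group, and 10 of them were detected nowhere. Among all gene names 6.55% were detected on all 9 arrays and 3.28% had the pattern of the 28. A member that passed the filter through AAV-GP73 and AAV-V HFD alone has a fitted fold change against AAV-V signals below detection, which is no more than a description, and lower bounds are given further on.

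The members that all 9 arrays measured went in both directions. Mrpl14 (mm9, chromosome 17, 45835317 to 45835376), a universally conserved protein at the interface of the subunits, gave scaled log2 signals of 4.62, 4.73 and 4.76 on the AAV-V arrays, 5.89, 6.39 and 6.39 on the AAV-GP73 arrays and 5.59, 6.07 and 6.44 on the AAV-V HFD arrays. Every AAV-V array lay below all the others. It rose by 1.52 ± 0.29 (log2 fold change ± SE, n = 3 per group) in AAV-GP73 (limma adjusted p = 0.00095) and by 1.33 ± 0.29 in AAV-V HFD (limma adjusted p = 0.0031). Mrpl51 (chromosome 6, 125143362 to 125143421), a mitochondria-specific protein of the large subunit, read 5.02, 5.29 and 4.59 in AAV-V, 5.74, 6.21 and 5.95 in AAV-GP73 and 5.95, 6.12 and 5.98 in AAV-V HFD. These groups did not overlap with AAV-V either. Its log2 fold change was 1.00 ± 0.27 in AAV-GP73, just short of the minimum of 2-fold (0.9967 on the log2 scale), and 1.05 ± 0.27 in AAV-V HFD, just past it (limma adjusted p = 0.0079). Both lie at the threshold: without AAV-V replicate 3 or AAV-V HFD replicate 2 the second was 0.86 or 0.9970 and not called, and without AAV-V replicate 1 or 2 or AAV-GP73 replicate 1 or 3 the first was 1.00 to 1.16 and called.

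Mrpl22 (chromosome 11, 57992990 to 57993049), whose bacterial relative lines the tunnel through which the new protein leaves, and Mrps15 (chromosome 4, 125732712 to 125732771), of the family that binds the rRNA of the small subunit early in assembly, showed smaller differences. The signals of Mrpl22 were 4.31, 4.61 and 4.31 in AAV-V, 4.71, 5.00 and 5.17 in AAV-GP73 and 4.80, 5.06 and 5.23 in AAV-V HFD, with log2 fold changes of 0.55 ± 0.26 and 0.62 ± 0.26 that did not pass the test (limma adjusted p = 0.0855 and 0.0624). Mrps15 had 4.35, 4.23 and 4.39 in AAV-V, 4.64, 4.57 and 4.52 in AAV-GP73 and 4.94, 5.12 and 4.90 in AAV-V HFD, with log2 fold changes of 0.25 ± 0.24 and 0.66 ± 0.24. For both genes all AAV-V arrays lay below the other 6, and the differences stayed under 2-fold. Such separation was common among all genes tested. In AAV-GP73 44.7% of them lay wholly above AAV-V and 23% wholly below, and in AAV-V HFD 33.8% and 23%.

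The remaining members of this kind, Mrps33, Mrpl52 and Mrps34, are all mitochondria-specific and had negative log2 fold changes, whose sign depended on the scaling. Mrps33 (chromosome 6, between 39752503 and 39755388), of the small subunit, gave 5.81, 5.74 and 6.08 in AAV-V, 5.09, 5.09 and 5.05 in AAV-GP73 and 4.82, 4.78 and 4.66 in AAV-V HFD, without overlap of the groups. It fell by 1.12 on the log2 scale in AAV-V HFD (SE 0.24, limma adjusted p = 0.0029), the only member called lower in any comparison, and its log2 fold change in AAV-GP73 was -0.80 ± 0.24, under the 2-fold minimum (with spike-in scaling these values were 0.21 and 0.89). Mrpl52 (chromosome 14, 55048507 to 55048566), of the large subunit, gave 6.70, 6.59 and 7.08 in AAV-V, 6.04, 5.91 and 6.004 in AAV-GP73 and 6.31, 6.46 and 6.69 in AAV-V HFD. The AAV-GP73 arrays lay below all AAV-V arrays, at a log2 fold change of -0.80 ± 0.26, and the AAV-V HFD arrays overlapped with AAV-V, at -0.30 ± 0.26, while spike-in scaling gave 0.88 and 1.03. Mrps34 (chromosome 17, 25033156 to 25033215), a small subunit protein whose human gene is mutated in a form of Leigh syndrome, gave 6.41, 6.23 and 6.68, then 6.12, 6.08 and 6.04, then 5.60, 5.95 and 6.25 in the same order of groups, and neither log2 fold change (-0.36 ± 0.27 and -0.50 ± 0.27) passed the test, with 1.32 and 0.83 under spike-in scaling.

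**Figure D2:**
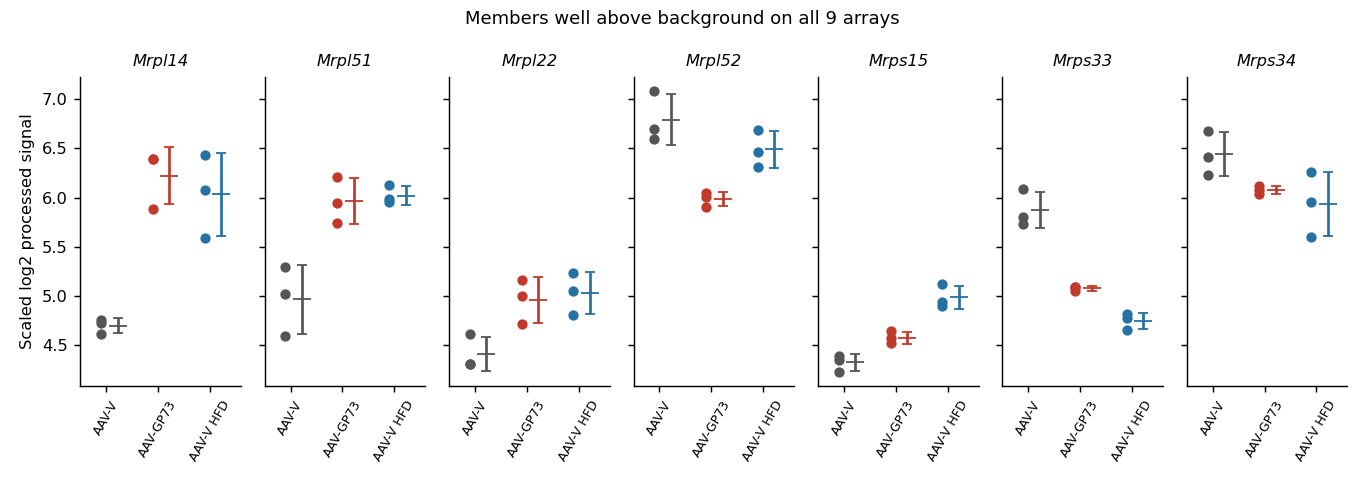
Scaled log2 processed signal (vertical axis) of the 7 members well above background on all 9 arrays, by group (points, the 3 arrays; bars, mean ± SD). Mrpl14 and Mrpl51 lie higher in both other groups than in AAV-V, and Mrps33 lies lower, at means of 5.87, 5.08 and 4.75.

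Over these 7 members the median log2 fold change was 0.25 in AAV-GP73 and 0.62 for AAV-V HFD, against -0.19 and -0.36 over the 2426 genes detected on all 9 arrays. In AAV-GP73 1 of the 7 was called higher and 0 lower, and of all genes with this detection 15.9% were called higher and 32.6% lower. In AAV-V HFD 2 were called higher and 1 lower, beside 11.4% and 30.1%.

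Of the 11 members detected on 1 or 2 AAV-V arrays and on all others, 5 were called higher in AAV-GP73 and 5 for AAV-V HFD. Mrpl20, a large subunit protein of bacterial descent needed for assembly, gave 3.85, 3.58 and 4.24 in AAV-V, 5.26, 5.37 and 5.69 in AAV-GP73 and 5.39, 5.51 and 5.48 in AAV-V HFD, the AAV-V arrays below the rest. It rose by 1.55 ± 0.27 and 1.57 ± 0.27 on the log2 scale, and was named after its values were seen. Mrpl12, which forms the flexible stalk that recruits translation factors, had 4.00, 2.50 and 2.97 in AAV-V, the first value being its single detection there, 4.74, 5.32 and 5.22 in AAV-GP73 and 5.11, 5.20 and 5.12 in AAV-V HFD. It rose by 1.94 ± 0.36 and by 1.99 ± 0.36 (limma adjusted p = 0.000855 and 0.0013), or by 1.13 and 1.18 with a common floor for dim values, described below, while a normexp background correction gave -0.24 and -0.26. Mrps36, which is now known as a component of the 2-oxoglutarate dehydrogenase complex rather than of the ribosome, went the other way. Its signals were 3.54, 4.26 and 4.04 in AAV-V, 3.02, 3.40 and 3.09 in AAV-GP73 and 3.41, 3.25 and 3.60 in AAV-V HFD, at log2 fold changes of -0.78 ± 0.28 and -0.52 ± 0.28, neither of them called (0.91 and 0.81 under spike-in scaling).

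Taking all 53 members tested, 28 (52.8%) passed upwards and 0 downwards in AAV-GP73 against AAV-V, where the shares over the whole table tested were 33.2% higher and 19.4% lower. Their median log2 fold change was 1.04 and that of all genes 0.59, a difference of 0.45. In AAV-V HFD against AAV-V 28 members were called higher and 1 lower, where 24.8% of all genes were called higher and 18.1% lower, with medians of 1.13 and 0.37 and a difference of 0.76. The same 3 AAV-V arrays stand in both comparisons. The background shares are lower than those of the members, but the members' detection patterns differ from those of all genes. Among genes detected on 0 AAV-V arrays and on all others, 71.0% of 1216 genes were called higher in AAV-GP73 beside 19 of the 28 members (67.9%), and 65.5% in AAV-V HFD beside 20 (71.4%). Among genes detected on some AAV-V arrays the shares were 35.1% of 750 genes beside 5 of 11 members (45.5%) in AAV-GP73, and 28.3% beside 45.5% in AAV-V HFD. Among genes detected on all AAV-GP73 arrays but not on all AAV-V HFD and on 0 AAV-V arrays, 45.0% were called higher in AAV-GP73 beside 3 of 7 members (42.9%), and 12.1% in AAV-V HFD beside 1 (14.3%). The members' shares were thus closer to those of genes with the same detection than to those of all genes in most of these comparisons.

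**Figure D3:**
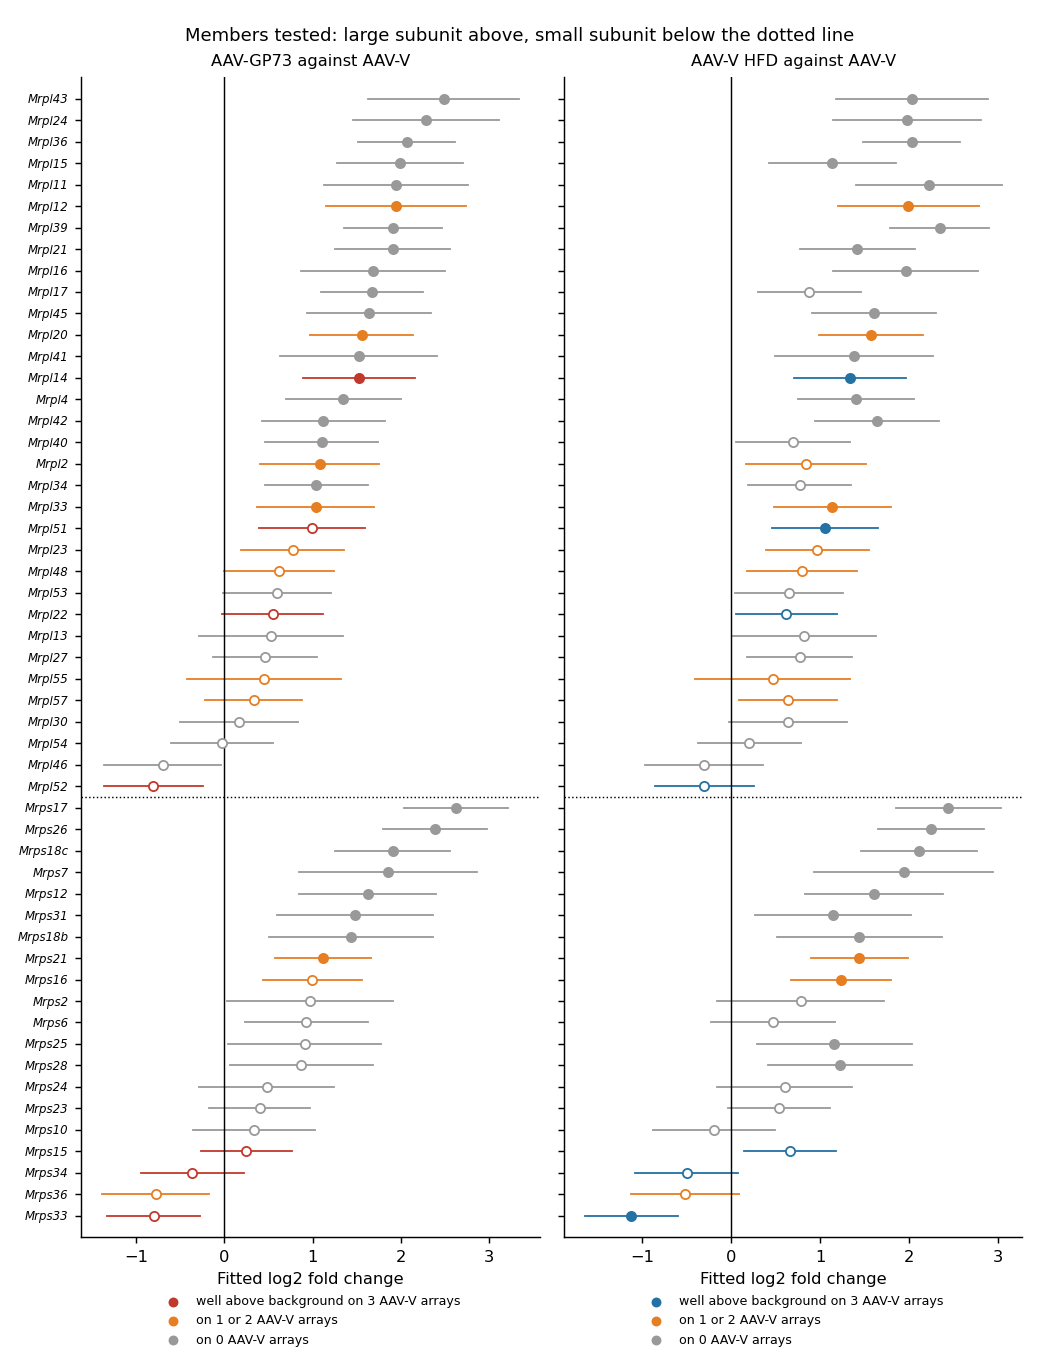
Fitted log2 fold change against AAV-V (horizontal axis) with its 95% confidence interval for the 53 members tested, in AAV-GP73 (left) and AAV-V HFD (right); filled points passed the test, and colours give the number of AAV-V arrays with detection. Grey members, detected on 0 AAV-V arrays, make up 22 of the 28 called higher on the left and 21 of the 28 on the right.

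A lower bound was set for the 35 members tested that were detected on 0 AAV-V arrays, by raising each AAV-V value to the array's dimmest detected signal where it lay under it. The bound compares group means and carries no sampling error, so it is not a confidence limit. The words "at least" refer to this bound alone. In AAV-GP73 the bound exceeded 1 for 17 of the 35, of which 14 were called, and in AAV-V HFD for 18, of which 14 were called. The share of all genes with such a bound is not given, so these counts are not particular to the members. Mrps7, whose bacterial relative organises the head of the small subunit, was at least 2.26-fold higher in AAV-GP73 and at least 2.40-fold higher in AAV-V HFD. Its signals were 3.93, 3.75 and 2.02 in AAV-V, none of them well above background, 4.63, 5.40 and 5.25 in AAV-GP73 and 5.59, 5.02 and 4.92 in AAV-V HFD. Mrpl43, a mitochondria-specific large subunit protein, was at least 2.23-fold higher in AAV-GP73 and at least 1.62-fold higher in AAV-V HFD. These were the only bounds of 2-fold or more among the brightest probes of the members. Mrps17, with the largest fitted change among the 53 members in both comparisons (2.62 and 2.44 on the log2 scale), had bounds of 1.52-fold and 1.34-fold. A second probe of Mrps17, dimmer over the 9 arrays and not tested, went the other way. It read 3.18, 4.05 and 3.79 in AAV-V, with 1 detection, and 2.41, 0.39 and 1.58 in AAV-GP73, with 0. In AAV-V HFD it read 2.98, 2.04 and 3.01, with 1 detection. The same rule puts this probe at least 2.68-fold lower in AAV-GP73, but most of its AAV-V signals were not well above background either. The direction of Mrps17 thus depended on the probe.

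When every scaled value under 3.94, the highest of the 9 arrays' lowest signals well above background, was raised to that level, 7 members were called higher in AAV-GP73 and 0 lower, beside 12.2% of all genes higher and 13.6% lower. In AAV-V HFD 8 were called higher, beside 8.39% of all genes, and Mrps33 lower, beside 12.4%. This alternative was chosen after seeing the data. Mrpl12, Mrpl14, Mrpl20, Mrps7 and Mrps21, a small subunit protein of bacterial descent, were called higher in both comparisons, Mrpl2 and Mrpl43 only in AAV-GP73, and Mrpl33, Mrpl51 and Mrps16 only in AAV-V HFD. Between the GP73 and the high fat diet arrays 0 members were called under this floor.

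Both subunits had members called higher in each comparison, and no test was made between them. Of the 33 large subunit genes 21, and of the 20 small subunit genes 14, were detected on 0 AAV-V arrays. In AAV-GP73 20 of 33 large subunit genes (60.6%) and 8 of 20 small subunit genes (40.0%) were called higher, beside 33.2% of all genes, with median log2 fold changes of 1.10 and 0.95. In AAV-V HFD the order turned, with 17 large (51.5%) and 11 small (55.0%) subunit genes called higher, beside 24.8% of all genes, and medians of 1.05 and 1.15. Within each array the medians of the subunits lay close to each other. The median deviation of the large subunit genes from their own mean over 9 arrays was -0.79 to -0.59 on the AAV-V arrays, 0.22 to 0.51 on the AAV-GP73 arrays and 0.35 to 0.45 on the AAV-V HFD arrays, and that of the small subunit genes -0.97 to -0.50, 0.05 to 0.42 and 0.30 to 0.40. Over all genes tested it was -0.40 to -0.18, 0.17 to 0.25 and -0.05 to 0.14. Most members of both subunits entered the test through the other groups alone, so low AAV-V values follow in part from the filter. The difference between the subunits on an array lay between -0.09 and 0.18, and the arrays of 1 group differed by up to 0.47 in the small and 0.30 in the large subunit.

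The members were also divided by descent, where the same shares of all genes apply. Of the large subunit genes of bacterial families 14 of 19 tested were called higher in AAV-GP73 and 11 for AAV-V HFD, and of the mitochondria-specific ones 6 of 12 in each, and 12 of the 19 and 9 of the 12 were detected on 0 AAV-V arrays. For the small subunit the counts called higher were 5 and 6 of 11 and 2 and 3 of 6, and 8 of the 11 and 4 of the 6 were detected on 0 AAV-V arrays. The medians of the 4 classes were 1.52, 1.05, 1.00 and 0.66 in AAV-GP73 and 1.14, 0.92, 1.24 and 0.84 in AAV-V HFD, in the order large bacterial, large mitochondria-specific, small bacterial, small mitochondria-specific. The class lists were taken from textbook knowledge, and no test was made between them.

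Members with a particular task were often below detection. At the stalk, Mrpl11 read 1.58, 3.07 and 1.78 in AAV-V, none detected, 3.75, 4.37 and 4.14 in AAV-GP73 and 4.22, 4.44 and 4.44 in AAV-V HFD, and was at least 1.17-fold and 1.42-fold higher. Mrpl10, which anchors the stalk, was detected on 2 AAV-GP73 arrays and 1 AAV-V HFD array and was not tested. Mrpl45, which holds the ribosome at the inner membrane, read 2.36, 1.83 and 1.65 in AAV-V, 3.20, 3.58 and 3.97 in AAV-GP73 and 3.88, 3.14 and 3.64 in AAV-V HFD. It was called higher in both comparisons, and so was Mrpl41, but as their AAV-V signals were not well above background and their bounds did not exceed 1, no fold is given. Mrps12, of the decoding centre, had bounds of 1.05-fold and 1.04-fold. On the log2 scale these are 0.07 and 0.055, less than the SE of its fitted changes (0.35).

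The related proteins Mrps18a, Mrps18b and Mrps18c descend from 1 bacterial protein, and the first of them sits in the large subunit in spite of its name. Mrps18b was at least 1.66-fold and 1.66-fold higher and was called in both comparisons, Mrps18c was called in both with a bound above 1 in AAV-V HFD only (1.06-fold), and Mrps18a was detected on 1 AAV-GP73 array and not tested. Mrps30, likewise a large subunit protein, Mrps22, Mrpl3, Mrpl44 and Mrps27 were not tested. Mrpl44, which has an RNase fold, and Mrps27, an RNA-binding protein, were detected on 0 of the 9 arrays.

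No member passed the test between AAV-GP73 and AAV-V HFD. The shares of all genes were 1.96% higher in AAV-GP73 and 0.556% lower, and among the 53 members limma called 0, with 2 at an unadjusted p under 0.05. The methods' t-test had 7 at an unadjusted p under 0.05, of which 0 reached 2-fold, and spike-in scaling called 1, Mrpl17 (1.14 on the log2 scale). The log2 fold changes ran from -0.51 to 0.85 with a median of -0.05, against 0.09 for all genes. The 95% confidence interval, not adjusted for the number of genes, lay within 2-fold in either direction for 32 of the 53 members. It reached 0.65 to either side in the median. A call also needed 2-fold and an adjusted p under 0.05, so smaller differences could not be called at any precision. Both members whose interval excluded 0 belong to the large subunit and to bacterial families and are named for that reason, after their values were seen. Mrpl17 read 3.13, 3.57 and 3.11 in AAV-GP73 and 2.37, 2.76 and 2.31 in AAV-V HFD, a difference of 0.79 ± 0.26 (limma adjusted p = 0.158), and Mrpl15 read 3.69, 4.32 and 3.79 against 2.65, 3.01 and 3.58, a difference of 0.85 ± 0.33 (limma adjusted p = 0.21). In both genes the arrays of the groups did not overlap. That held for 4 members with AAV-GP73 above (15.2% of all genes) and 7 with AAV-GP73 below (8.79%).

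Several members had more than 1 probe, and the probes did not always move together. Among the 30 members with more than 1 probe, 7 had at least 2 that could be tested, and in 3 of these, Mrps33, Mrpl27 and Mrps7, they differed in sign. The first 30 bases of the probes of Mrps33 and Mrpl27 are shown because the call rests on which is read; the positions are those of mm9, and whether a probe lies in coding sequence was not determined.
Mrps33, brightest probe, chromosome 6, minus strand, spanning 39752503 to 39755388: gtttccttggcctttacagagatgagcatc
Mrps33, other probe, minus strand, 39752333 to 39752392: agtgcatctcattatcttcccgagtattag
Mrpl27, brightest probe, chromosome 11, plus strand, 94521032 to 94521091: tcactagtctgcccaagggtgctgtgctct
Mrpl27, other probe, plus strand, 94517857 to 94517916: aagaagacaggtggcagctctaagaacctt
Mrpl27, other probe, plus strand, 94521320 to 94521379: ccatctataatctcttcttgtgtgtctgaa

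The brightest probe of Mrps33 has 60 bases over a span of 2886, so it crosses at least 1 splice junction, and it gave the fall described above. The other probe, next to it on chromosome 6, read 2.32, 1.78 and 3.29 in AAV-V, with 0 detections, 4.53, 4.69 and 4.89 in AAV-GP73 and 4.25, 4.57 and 4.26 in AAV-V HFD. It was called higher in both comparisons and was at least 1.80-fold and 1.42-fold higher. The mean of both probes had log2 fold changes of 0.72 in AAV-GP73 and 0.39 for AAV-V HFD, which were not called, so that the lower call depended on the choice of probe.

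For Mrpl27, of the large subunit and a neighbour of the peptidyl transferase centre in bacteria, the brightest probe had a log2 fold change of 0.46 in AAV-GP73 and 0.77 for AAV-V HFD. The probe before it on the chromosome, with 4.11, 4.74 and 4.68 in AAV-V, 3.55, 3.67 and 3.14 in AAV-GP73 and 3.62, 3.73 and 3.13 in AAV-V HFD, was detected on all 9 arrays and fell by 1.06 and 1.02 (limma adjusted p = 0.0092 and 0.0141 over all probes), while spike-in scaling gave 0.62 and 0.32. The remaining probe, a little after the brightest, rose by 1.37 and 1.63 on the log2 scale. Mrps7 had a second probe with log2 fold changes of -0.16 and -0.64, neither called, beside the bounds of its brightest probe given above.

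**Figure D4:**
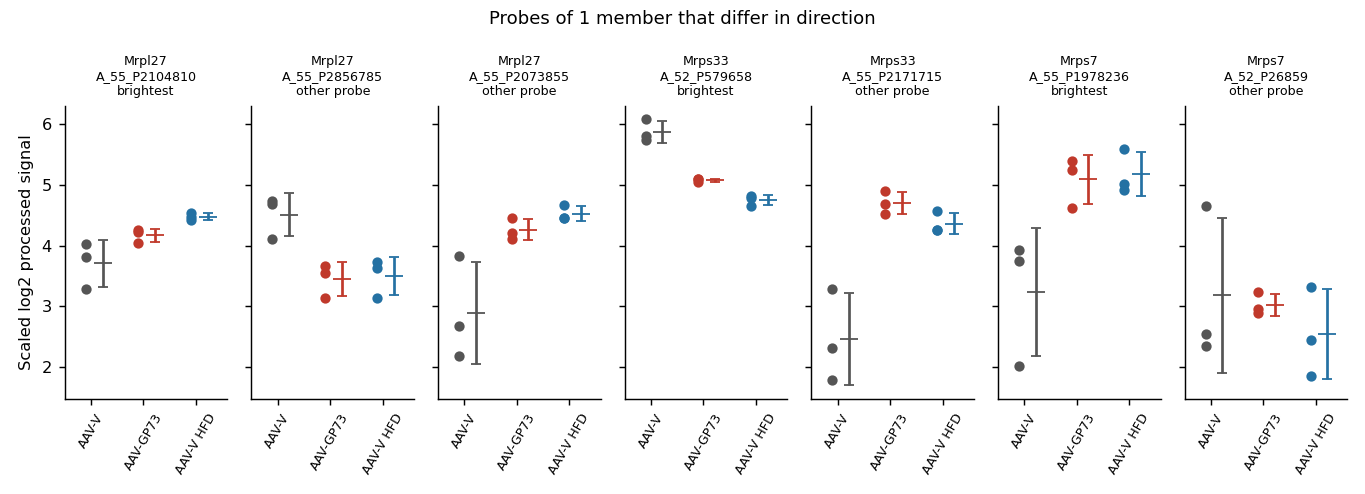
Scaled log2 processed signal (vertical axis) of each tested probe of Mrpl27, Mrps33 and Mrps7 by group (points, the 3 arrays; bars, mean ± SD). The brightest probe of Mrps33 is lower in both other groups than in AAV-V, and its other probe is higher, at means of 2.46, 4.70 and 4.36.

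Among probes that overlap, those of Mrps18b, which share 55 bases, had mean scaled log2 signals of 4.50 and 4.61 in AAV-GP73. Both were detected on 0 AAV-V arrays, and their bounds were alike, at least 1.56-fold and 1.66-fold higher in AAV-GP73. The probes of Mrps18c, which share 53 bases, were also detected on 0 AAV-V arrays and had no bound above 1 in AAV-GP73. Of the probes of Mrps21, which share 40, one was detected on 2 AAV-V arrays and the other on 0, so the sizes of their changes were not compared.

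Other proteins of the mitochondrial ribosome carry names of their own. Of 6 such genes on the array 5 were tested, 3 were called higher in each comparison with AAV-V and 0 lower. Aurkaip1, a mitochondria-specific small subunit protein detected on all 9 arrays, rose by 1.29 and 1.24 on the log2 scale, Chchd1 was at least 2.14-fold and 2.27-fold higher, and Dap3, which binds GTP in the small subunit, was called in both. Ict1, a peptidyl-tRNA hydrolase built into the large subunit, had log2 fold changes of 0.99 and 0.95 and was not called, and Gadd45gip1, detected on all arrays, had -0.51 and -0.45.

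The factors around the ribosome did not share 1 direction. Of 13 translation factors 4 were tested. Tufm, the elongation factor that brings the aminoacyl-tRNA, was at least 1.28-fold higher in each group, and Mrrf, the recycling factor, was called higher in both, while Gfm1, the elongation factor of translocation, fell by 1.36 in AAV-GP73 and 1.51 for AAV-V HFD (limma adjusted p = 0.0063 and 0.0050), detected on all 9 arrays, and had 0.32 and -0.17 under spike-in scaling. Of 20 mitochondrial aminoacyl-tRNA synthetases 4 were tested and 0 were called higher. Lars2 and Sars2, which charge leucine and serine tRNA and were detected on all 9 arrays, fell by 2.58 and 2.62 in AAV-GP73 and by 1.52 and 1.87 in AAV-V HFD. Under spike-in scaling Lars2 had -0.90 and -0.19 and Sars2 -0.94 and -0.53, all short of the 2-fold minimum. Fars2 and Tars2, the phenylalanine and threonine enzymes, were detected on 0 AAV-V arrays and not called.

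Among 25 assembly factors and rRNA modifying enzymes 6 were tested, with 4 called higher in AAV-GP73, and 3 called higher and 1 lower in the high fat diet group. Malsu1, which keeps the large subunit from joining too early, was at least 1.73-fold and 1.61-fold higher, Ngrn was called higher in both without a bound above 1, and Gtpbp10, a GTPase of large subunit maturation, was called lower in AAV-V HFD, though its AAV-V signals were not well above background. Of 22 genes for mitochondrial DNA expression 7 were tested, with 2 called higher in AAV-GP73, 4 in AAV-V HFD and 0 lower, beside the same shares of all genes. Of these 7, 0 were detected on all 9 arrays. Lrpprc, which stabilises mitochondrial mRNA, was at least 2.38-fold and 2.10-fold higher. Hsd17b10, a subunit of mitochondrial RNase P and not detected on all 9 arrays, had fitted log2 fold changes of 2.69 and 2.19. Grsf1, an RNA granule protein, was called in AAV-V HFD only and had no bound above 1. Tfam and Polrmt, the packaging factor and the RNA polymerase of mitochondrial DNA, were detected on 0 of the 9 arrays. Of 9 regulators of mitochondrial biogenesis Esrra and Yy1 alone could be tested, and neither was detected on all 9 arrays. Both were called higher in AAV-GP73 and Esrra in AAV-V HFD, beside the same shares of all genes. Esrra was detected on 0 AAV-V arrays and had no bound above 1. It read 3.00, 5.22 and 3.30 in AAV-GP73, so 1 array stood well above the others.

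For the ribosome of the cytosol 75 genes were tested, 74 of them detected on all 9 arrays. In AAV-GP73 2 passed upwards (2.67%) and 2 downwards (2.67%), beside 15.9% and 32.6% of all genes detected on all 9 arrays. In AAV-V HFD 11 (14.7%) passed upwards and 2 (2.67%) downwards, beside 11.4% and 30.1%. The medians were 0.63 and 0.77. The subunits of the respiratory chain and ATP synthase that the nucleus encodes gave other counts, as 55 of 73 passed upwards (75.3%) and 1 downwards in AAV-GP73, and 48 (65.8%) and 1 in AAV-V HFD, beside 33.2% and 24.8% of all genes upwards, with medians of 1.24 and 1.19. Among the 51 of these detected on all 9 arrays, 35 (68.6%) and 30 (58.8%) were called higher, beside 15.9% and 11.4% of all genes with this detection, at medians of 1.13 and 1.08. Levels and detection differ between these lists, and no test was made between them.

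**Figure D5:**
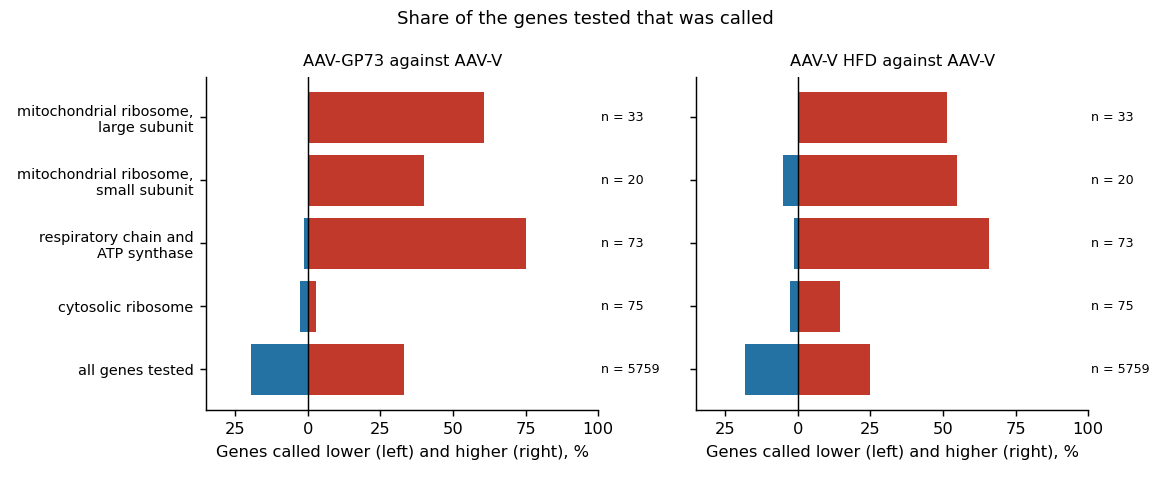
Share of the genes tested (horizontal axis, %) called lower (blue, left of 0) and higher (red, right of 0) against AAV-V, 1 panel for each other group, for both subunits of the mitochondrial ribosome, the respiratory chain with ATP synthase, the cytosolic ribosome and all genes. In AAV-GP73 the red share is 60.6% and 40.0% for the large and the small subunit and 2.67% for the cytosolic ribosome.

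The sizes of these changes depend on how the arrays are set to each other. With each array's percentile taken over all probes, most of which are without signal, the median over all genes tested was 1.59 in AAV-GP73 and 1.32 for AAV-V HFD, against 0.59 and 0.37 above. Then 47 of the 53 members were called higher and 0 lower in each comparison, beside 64.5% of all genes higher and 6.95% lower in AAV-GP73 and 56.8% and 3.14% in AAV-V HFD. The distance of the members' median from that of all genes, 0.45 and 0.76, is the same under both scalings, as a shift of an array moves all its genes alike.

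Markers of other cells differed between the groups in part. The summed scaled log2 level of 7 erythroid markers was 8.65 to 9.96 on the AAV-V arrays, 11.74 to 14.09 on the AAV-GP73 arrays and 9.36 to 10.16 on the AAV-V HFD arrays, and 3, 5 and 3 of the 7 were well above background on all arrays of the group. That of 8 macrophage markers was 7.25 to 7.37, 7.59 to 7.97 and 7.73 to 8.09, and that of 10 hepatocyte markers 14.26 to 14.82, 14.21 to 14.76 and 13.52 to 14.41. The sum of 6 stellate cell or fibroblast markers was 7.19 to 8.10, 7.30 to 7.57 and 6.349 to 7.003, so that AAV-V HFD lay below AAV-V without overlap. Its 2 members detected on all 9 arrays went apart in AAV-GP73, with Dcn called higher (1.20) and Des called lower (-2.14). In AAV-V HFD Des was called lower (-2.31) and Dcn was not called (0.29). The other 4 markers of this sum were detected on 0 AAV-V arrays. Clec4g, the 1 endothelial marker of 6 tested, was called higher in AAV-GP73 from AAV-V signals below detection. Cholangiocyte and lymphocyte markers had 0 of 4 and 1 of 6 detected on all arrays of each group. In the order AAV-V, AAV-GP73 and AAV-V HFD, the summed levels were 4.74 to 5.15, 4.82 to 5.37 and 3.52 to 4.69 for endothelial markers, 4.15 to 4.47, 2.54 to 3.39 and 2.27 to 3.61 for cholangiocyte markers, and 6.21 to 6.98, 5.57 to 6.24 and 5.63 to 6.503 for lymphocyte markers. Their part in the levels of the mitochondrial ribosomal protein genes was not tested, and in bulk tissue fewer cells of a type and less RNA per cell cannot be told apart.

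The promoters of the members were searched for motifs. Promoters from 250 bases before to 50 after the start site (RefSeq, GRCm38.p6) were matched for 68 of the 77 members. CCGGAAG, the core bound by ETS factors, was found on either strand in 25 of the 68 (36.8%), against 9.93% of 27025 gene symbols and 19.1% of the 3427 tested genes with a promoter. Of the matched members called higher in AAV-GP73 10 of 26 held it, and of those tested and not called 10 of 21. GATGGCG, part of the YY1 motif, and GCATGCG, the core of the NRF1 motif, were each found in 8 of the 68 (11.8%), against 4.04% and 4.01% of all symbols and 7.09% and 7.21% of the tested genes. A match is a stretch of letters and not a bound site. Stretches before the start site of 5 members are shown for the motif, in capitals, as CCGGAAG or its reverse complement, because these genes differ in direction and in detection and hold it all the same.
Mrpl22, chr11:58171596-58171632, plus strand: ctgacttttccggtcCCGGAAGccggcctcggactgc
Mrpl51, chr6:125192095-125192131, plus strand: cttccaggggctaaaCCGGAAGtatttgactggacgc
Mrpl52, chr14:54426847-54426883, plus strand: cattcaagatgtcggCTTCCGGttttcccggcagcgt
Mrps16, chr14:20393543-20393579, minus strand: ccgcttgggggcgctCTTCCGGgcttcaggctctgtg
Mrpl43, chr19:45006443-45006513, minus strand: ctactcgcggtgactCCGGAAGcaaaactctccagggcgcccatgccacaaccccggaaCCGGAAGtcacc

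The motif began 53 bases before the start site in Mrpl22, 90 in Mrpl51, 47 in Mrpl52, 74 in Mrps16 and 56 and 12 in Mrpl43. Mrpl51, Mrps16 and Mrpl43 were called higher in AAV-V HFD, and Mrpl22 and Mrpl52 were not called.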

How the data were processed

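Liver RNA of 9 samples, 3 per group, was labelled with Cy3 and hybridised to one-colour Agilent arrays. The deposited intensity columns used are processed signals that the authors obtained with Feature Extraction (12.0.3.1 per the file headers; the processing notes name 10.7), detrended within each array, with dim spots replaced by surrogates. The log2 values deposited by the authors, whose normalization is not stated in the sources used here, served as an alternative; all 56605 probe names matched.

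Each array's log2 processed signal was shifted to the 75th percentile of the 2666 probes well above background on all 9 arrays. The brightest probe of a gene was tested in R 4.3.3 with limma 3.58.1 (lmFit, eBayes, 3 groups together), adjusted by the Benjamini-Hochberg method over 5759 genes and called at 2-fold and an adjusted p of 0.05. Adjusted p-values are from this test, except that for other probes of a gene the same fit was made and adjusted over all probes that passed the filter. On simulated arrays it recovered 60.5% of log2 changes of 1.5 and 79% of log2 changes of 2. Those arrays had no detection limit and no difference in brightness, so they do not show how the test handles dim AAV-V signals.

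Members and gene lists were chosen with earlier results of these data known. Genes named were members detected on all 9 arrays, called lower, of a textbook role or with probes of opposite sign, and in other lists the largest changes. Residuals of equal replicate numbers correlated over 0.1 in 2 of 9 pairs, so the numbers were not taken as pairs. Alternatives were other scalings, background corrections, filters, probe rules, fits, tests and thresholds, a common floor, and leaving out each array. The number of arrays and, for many members, AAV-V signals below background limit the precision.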

Additional observations from a re-analysis of the deposited data

How the results depend on the processing

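The counts of members called (28 in AAV-GP73 against AAV-V, 29 in AAV-V HFD against AAV-V, 0 between the other groups) depended on scaling, background correction and the treatment of dim values. The 75th percentile of all probes gave 47, 47 and 0, spike-in scaling 49, 50 and 1, a normexp correction with an offset of 50 gave 0 in each (43 and 44 of 53 at an unadjusted p under 0.05; the offset exceeded the signal of 43 members), detection on all 9 arrays 1 and 3 of 7 members tested, the common floor 7 and 9, and the methods' t-test after Benjamini-Hochberg adjustment 23 and 19. These counts are of members alone. Spike-in signals were alike between the groups, so spike-in scaling left the AAV-V arrays dimmer for genes at large. Shares of all genes are not given for spike-in scaling, normexp and the t-test, so those counts are no result particular to the members. The shares of all genes with the percentile of all probes and with the common floor are given above. With the replicate block the counts were 28, 29 and 0. Leaving out each array in turn gave 24 to 31, 24 to 30, and 0 throughout. Of all genes 29.4% to 34.4%, 21% to 26.5% and 0.295% to 2.27% were then called higher. The distance of the members' median log2 fold change from that of all genes (0.45, 0.76 and -0.14) was 0.71 and 0.97 after quantile normalization, 0.078 and 0.14 after normexp, 0.86 and 1.16 with the authors' log2 values, 2.22, 2.06 and 0.19 with no filter on dim probes, and 0.98 in AAV-V HFD and 0.00099 between the other groups with detection on all 9 arrays. Leaving out each array gave 0.40 to 0.55, 0.64 to 0.76 and -0.23 to -0.06. Except with detection on all 9 arrays, these distances do not compare genes of the same detection. Directions turned for single genes, those named in the text first, given as AAV-GP73 and AAV-V HFD. After normexp these were Mrpl12 (-0.24 and -0.26), Mrpl22 (-0.46 and -0.49), Mrps15 (-0.59 and -0.43) and Mrps21 (-0.28 and -0.13). With the percentile of all probes they were Mrpl52 (0.19 and 0.65), Mrps34 (0.63 and 0.45), Mrps36 (0.22 and 0.43) and Mrps33 in AAV-GP73 (0.20), and also Mrpl46 (-0.69 and -0.30 to 0.30 and 0.65), Mrpl54 in AAV-GP73 (-0.02 to 0.97) and Mrps10 in AAV-V HFD (-0.19 to 0.76), all 3 detected on 0 AAV-V arrays, and with spike-in scaling Mrpl52 (0.88 and 1.03), Mrps33 (0.89 and 0.21), Mrps34 (1.32 and 0.83) and Mrps36 (0.91 and 0.81). The mean of the passing probes turned Mrps33 (0.72 and 0.39). Why the results moved with these choices was not tested. Levels below background in AAV-V limit most of the fold changes.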
